A study of Mus musculus with 6 samples.

Results

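The family of miR-148 and miR-152 is a set of paralogous microRNAs that mice encode in 3 hairpin genes, Mir148a, Mir148b and Mir152. Its 6 mature arms were chosen by name, as the rows of the known miRNA count table for the 3p and 5p arms of miR-148a, miR-148b and miR-152. They make up 6 of the 1978 known miRNAs in that table, and all 6 passed the filter on low counts that left 619 known miRNAs for testing. For none of them did another miRNA have counts within 1% in each library.

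A microRNA is cut from a hairpin precursor as a duplex of a 5p and a 3p arm. Usually one arm, the guide, is kept in an Argonaute protein and pairs through its seed (bases 2 to 8) with sites in messenger RNAs, which it represses, and the other arm is degraded. The 3p arms are the guides of this family. They are known for repressing DNA methyltransferase 1 in human cells, and miR-148a-3p for repressing the cholesterol exporter Abca1 in liver, where it is abundant. Mir148b and Mir152 lie within Copz1 and Copz2, which encode alternative zeta subunits of the COPI coat of Golgi vesicles.

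The libraries come from c-kit+ cardiac progenitor cells, cells bearing the c-kit receptor on their surface that were sorted on antibody-coated magnetic beads from enzyme-digested hearts of wild-type male C57BL/6 mice aged 4 to 6 weeks. The hypoxia group, called model in the titles, holds 3 libraries labelled 12 hours and the control group 3 libraries labelled 0 hours. The labels write hypoxia in the treatment field of both groups, so the groups follow the titles and times, and columns headed 1 were read as hypoxia and those headed 0 as control. Every direction given here rests on that reading. No source used here gives the oxygen level, and whether control cells spent the same time in culture is not stated, so culture time and hypoxia cannot be told apart. The labels speak of RNA from exosomes and the design text of RNA from cells, and this was not settled. The titles call the replicates biological but do not say whether animals or cultures differed, so the p-values speak only of library-to-library spread, part of which may be technical.

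Libraries held between 12285970 and 16975987 known miRNA counts. A level is given in CPM, counts scaled to the library total, here after correction with TMM factors. Messenger RNAs such as that of c-kit were not measured, and among lineage miRNAs the libraries were dominated by the endothelial miR-126a arms, which summed to 214053 to 247378 CPM in hypoxia and 223665 to 235468 CPM in control (unscaled CPM). A sum of 24719 to 48260 CPM in hypoxia and 24643 to 53609 CPM in control came from 4 fibroblast and smooth muscle markers, 106.9 to 166 CPM in hypoxia and 79.1 to 153 CPM in control from 5 cardiomyocyte markers, and 13.5 to 29.7 CPM in hypoxia and 15.0 to 28.7 CPM in control from 6 blood cell markers. Liver miR-122-5p lay at 32.0 to 63.9 CPM in hypoxia and 32.7 to 83.4 CPM in control, the 2 neural markers at 29.4 to 43.9 CPM in hypoxia and 20.8 to 37.4 CPM in control, and the 5 epithelial markers at 5.48 to 8.28 CPM in hypoxia and 4.97 to 9.43 CPM in control. The ranges of the groups overlapped for each of these lists. Of the markers, miR-208a-3p, miR-208b-3p (cardiomyocyte), miR-223-3p, miR-144-5p (blood), miR-141-3p and miR-375-3p (epithelium) did not pass the filter on low counts.

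The mature arms are printed first because the shared seed is what makes these miRNAs one family. All 6 names matched the RefSeq table of build GRCm38.p6, from which the sequences are taken, 5′ to 3′, with the seed in capitals.
mmu-miR-148a-3p: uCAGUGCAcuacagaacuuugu
mmu-miR-148b-3p: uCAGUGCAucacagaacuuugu
mmu-miR-152-3p: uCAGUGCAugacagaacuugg
mmu-miR-148a-5p: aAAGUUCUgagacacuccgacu
mmu-miR-148b-5p: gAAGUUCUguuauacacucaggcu
mmu-miR-152-5p: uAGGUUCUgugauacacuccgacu

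The 3 guide arms start with U and hold the same seed, CAGUGCA, whose complement in a target is UGCACUG. Counting from 1 at the 5′ end of miR-148a-3p, miR-148b-3p differs from it by C9U and U10C and miR-152-3p by C9U, U10G and U20G. Relative to miR-148b-3p, miR-152-3p differs by C10G and U20G. Guides thus differ from each other in 2 or 3 bases just behind the seed and near the 3′ end, and reads carrying errors at those bases could be counted for the wrong paralog. No source used here names the counting program or the mismatches it allowed. Among the 5p arms, miR-148a-5p and miR-148b-5p share a seed, and that of miR-152-5p differs from it in 1 base.

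The hairpins are shown to place the arms, which stand in capitals, 5p first.
Mir148a: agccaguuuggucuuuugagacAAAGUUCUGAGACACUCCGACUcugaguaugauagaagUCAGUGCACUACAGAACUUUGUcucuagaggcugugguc
Mir148b: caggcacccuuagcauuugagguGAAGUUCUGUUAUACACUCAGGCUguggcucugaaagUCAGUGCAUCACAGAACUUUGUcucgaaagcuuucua
Mir152: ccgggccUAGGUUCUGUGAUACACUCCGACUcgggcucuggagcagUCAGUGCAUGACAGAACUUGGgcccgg

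Mir148a lies on the minus strand at chr6:51269812-51269910 (GRCm38), with no host gene on either strand, and the nearest protein-coding gene, Nfe2l3, is 162760 bases away. Mir148b lies on the plus strand at chr15:103285125-103285221, in intron 1 of Copz1 on the same strand. Mir152 lies on the plus strand at chr11:96850393-96850465, in intron 1 of Copz2, also on the same strand. Of the annotated host transcripts that span the hairpin, 4 of Copz1 and 3 of Copz2, none had an exon overlapping it. Host messenger RNAs were not measured in these libraries.

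miR-148a-3p was the family's most abundant arm by far. It ranked 8 among the 619 tested miRNAs by mean level, followed by miR-148b-3p at 43 and miR-152-3p at 44. The 5p arms ranked 189 (miR-152-5p), 272 (miR-148a-5p) and 287 (miR-148b-5p). The arms are 21 to 24 bases long, so they differ little in length. Levels were not corrected for how well each sequence is captured in a library, so this order is one of read counts. miR-148b-3p and miR-152-3p overlapped over the libraries, and which of them was higher varied from library to library. miR-148a-5p and miR-148b-5p also overlapped over the libraries, but within each of the 6 libraries miR-148a-5p had the higher count, by as little as 424 against 421 in hypoxia A.

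**Figure D1:**
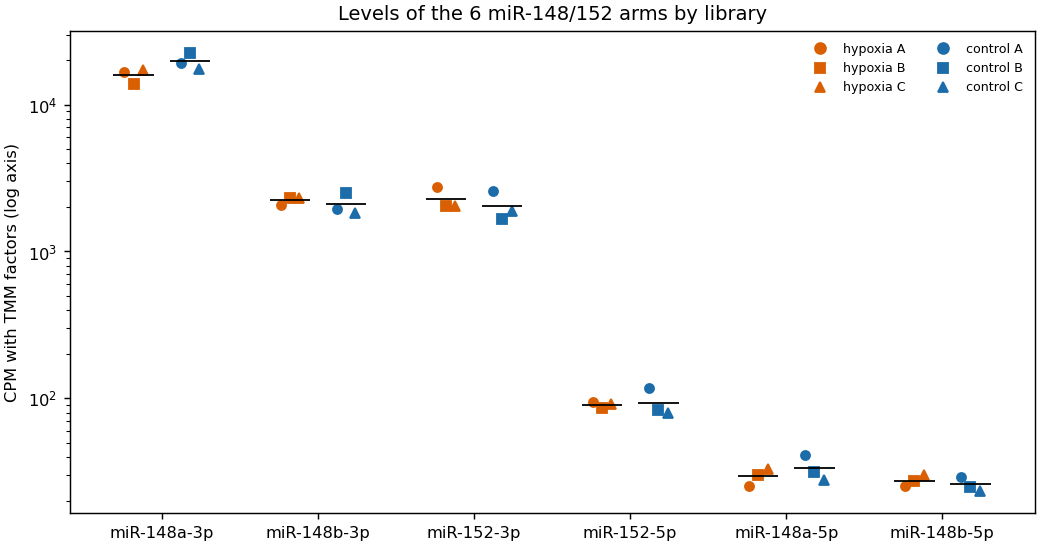
Level of each arm in CPM with TMM factors (log axis) in the 3 hypoxia libraries (left, orange) and the 3 control libraries (right, blue). Points are libraries, with the shape giving the letter of the column, and black bars are group means. For miR-148a-3p, at 13759 to 17086 CPM in hypoxia and 17578 to 22410 CPM in control, the groups do not overlap, and for the other 5 arms they do.

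The family held 2.10% ± 0.303 of known miRNA counts in hypoxia and 2.34% ± 0.104 in control (SD, n = 3 each). By library the share was 2.30%, 1.75% and 2.26% in hypoxia A, B and C, and 2.41%, 2.39% and 2.22% in control A, B and C. Hypoxia B stood lowest, and hypoxia A and C lay above control C, so the groups overlapped. At this depth counting error was small, with an exact Clopper-Pearson 95% interval of 1.75% to 1.76% in hypoxia B. The difference was -0.24 percentage points with all libraries and -0.062 without hypoxia B. It was not tested, being a sum over arms chosen with earlier results known.

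miR-148a-3p, the guide that carries most of the family's counts, had its lower values in the hypoxia libraries. It stood at 16578, 13759 and 17086 CPM in hypoxia A, B and C, and at 19233, 22410 and 17578 CPM in control A, B and C. All 3 hypoxia libraries lay below all 3 control libraries, with hypoxia C and control C only a little apart. The means were 15808 ± 1792 CPM in hypoxia and 19740 ± 2456 CPM in control (SD, n = 3 each), which is 0.80-fold in the fit. Its log2 fold change of -0.32 (SE 0.15) did not pass edgeR's quasi-likelihood test adjusted over all 619 miRNAs (adjusted p = 0.73, unadjusted p = 0.063). With the column letter as a block it was -0.32 (SE 0.13, edgeR adjusted p = 0.18), and in that fit without pair B it was -0.16.

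Libraries of one column letter were taken as a pair, which the labels do not state. Pair by pair, the log2 difference of miR-148a-3p between hypoxia and control was -0.21 in pair A, -0.70 in pair B and -0.04 in pair C. All 3 pairs pointed downward, which any pairing would give, since the groups did not overlap. Pair B gave most of the size. In bulk libraries, fewer cells that express a miRNA and less of it per cell cannot be told apart.

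This separation has to be read against the rest of the table. Of the 619 tested miRNAs, 5.49% had all hypoxia libraries below all control libraries, against 1 of the 6 arms, and 7.43% had all hypoxia libraries above, against none of the arms. edgeR called 0 of the 619 (0%), while DESeq2 called 1 and edgeR with the letter as a block called 14 (2.26%). In edgeR, 42 miRNAs had an unadjusted p under 0.05 without the block and 132 with it. If no miRNA differed, 31.0 would be expected. With the block, miR-148a-3p was among the 132 (edgeR quasi-likelihood test, unadjusted p = 0.030). After adjustment, no member was among the calls of any of these fits.

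miR-148b-3p, the guide from the Copz1 intron, stood at 2070, 2329 and 2328 CPM in hypoxia A, B and C, and at 1948, 2506 and 1826 CPM in control A, B and C. The 3 hypoxia values lay inside the range of the control values. The means were 2242 ± 149 CPM in hypoxia and 2093 ± 363 CPM in control (SD, n = 3 each). The log2 fold change was 0.10 (SE 0.17, edgeR adjusted p = 0.99), and pair B went the opposite way (-0.11) from pairs A (0.09) and C (0.35).

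miR-152-3p, the guide from the Copz2 intron, stood at 2731, 2034 and 2042 CPM in hypoxia A, B and C, and at 2572, 1657 and 1899 CPM in control A, B and C. Library A was the highest of its group in both conditions, and the groups overlapped. The means were 2269 ± 400 CPM in hypoxia and 2043 ± 474 CPM in control (SD, n = 3 each), and hypoxia over control gave 0.15 on the log2 scale (SE 0.21, edgeR adjusted p = 0.99). Each pair lay above 0, at 0.09 in pair A, 0.30 in pair B and 0.10 in pair C. The value was -0.01 without hypoxia A and -0.00011 without control B.

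The sum of the fibroblast and smooth muscle markers was also highest in the A libraries. It was 48260, 28846 and 24719 CPM in hypoxia A, B and C, and 53609, 24871 and 24643 CPM in control A, B and C (unscaled CPM). This sum mostly follows miR-143-3p, with a mean of 31368 CPM over all libraries. The means of miR-199a-5p, miR-145a-5p and miR-214-3p were 1904, 435 and 259 CPM. The part of these markers in the miR-152-3p levels was not tested.

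**Figure D2:**
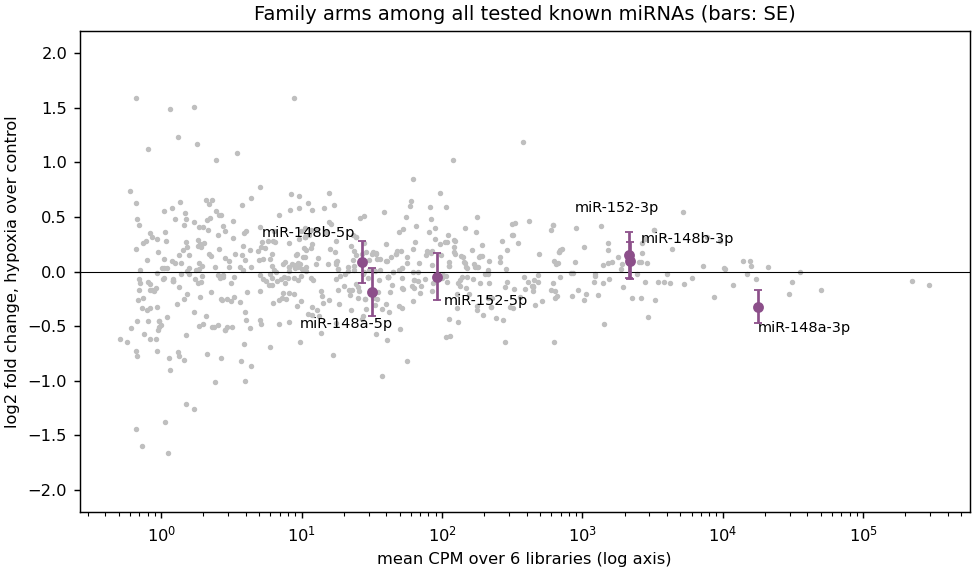
Log2 fold change of hypoxia over control against mean CPM (log axis) for the 619 tested miRNAs (grey points, 1 of them outside the axis) and the 6 family arms (purple, bars are SE). miR-148a-3p lies at -0.32, and the 5 other arms lie between -0.19 and 0.15.

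The 5p arms, taken to be the passenger strands, were scarce. miR-152-5p was the most abundant of them, at 94.1, 86.1 and 91.3 CPM in hypoxia A, B and C and 118, 83.5 and 79.3 CPM in control A, B and C. Control A stood apart from the others, the groups overlapped, and the log2 fold change was -0.05 (SE 0.22, edgeR adjusted p = 0.99).

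miR-148a-5p, the partner of the most abundant guide, stood at 25.5, 30.2 and 32.9 CPM in hypoxia A, B and C and at 41.4, 31.6 and 27.9 CPM in control A, B and C. Control A was again the highest, and the order of the groups turned between pairs, from -0.70 in pair A to 0.24 in pair C (log2). The log2 fold change was -0.19 (SE 0.22, edgeR adjusted p = 0.99). These values rest on 424, 493 and 454 counts in hypoxia A, B and C and 511, 411 and 438 counts in control A, B and C.

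miR-148b-5p stood at 25.3, 27.4 and 29.9 CPM in hypoxia A, B and C and at 29.3, 25.1 and 23.4 CPM in control A, B and C. The groups overlapped, and hypoxia over control gave 0.09 on the log2 scale (SE 0.19, edgeR adjusted p = 0.99). Over all 6 arms, 3 log2 fold changes were above 0 and 3 below, and of all tested miRNAs 51.2% were above 0, with a median of 0.01.

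The guide arms share a seed, so their relative counts describe, in reads, which paralog supplies it. miR-148a-3p made up 77.5%, 75.9% and 79.6% of guide counts in hypoxia A, B and C, and 81.0%, 84.3% and 82.5% in control A, B and C. Every hypoxia library held a smaller part of miR-148a-3p than every control library. The means were 77.7% ± 1.86 in hypoxia and 82.6% ± 1.68 in control (SD, n = 3 each). Hypoxia minus control was -4.91 percentage points.

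miR-148b-3p made up 9.68%, 12.9% and 10.9% of guide counts in hypoxia A, B and C, and 8.20%, 9.43% and 8.57% in control A, B and C. Every hypoxia library held a larger part of it than every control library. The 3 parts add up to the whole, so a smaller part of miR-148a-3p by itself makes the others larger, and the level of miR-148b-3p in CPM overlapped between groups. How often such parts separate the groups in other families was not computed. miR-152-3p made up 12.8%, 11.2% and 9.52% in hypoxia A, B and C, and 10.8%, 6.24% and 8.92% in control A, B and C. Its groups overlapped, because control A lay above hypoxia C.

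**Figure D3:**
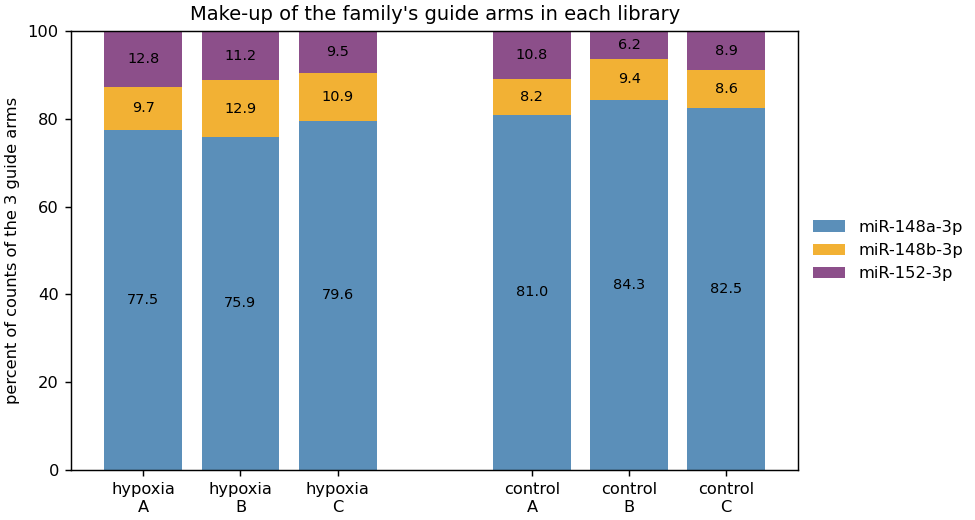
Percent of the counts of the 3 guide arms taken by each of them, with 1 bar per library, hypoxia on the left and control on the right. miR-148a-3p holds 75.9% to 79.6% in hypoxia and 81.0% to 84.3% in control.

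Ratios of counts within a library do not depend on library scaling, and 6 of them were set against each other by group with an exact permutation test, two-sided, whose smallest p for 3 libraries against 3 is 0.1. There were 8.01, 5.91 and 7.34 reads of miR-148a-3p per read of miR-148b-3p in hypoxia A, B and C, and 9.88, 8.94 and 9.63 in control A, B and C. All 3 hypoxia ratios lay below all 3 control ratios. On the log2 scale the mean was 2.81 ± 0.226 in hypoxia and 3.24 ± 0.0745 in control (SD, n = 3 each), a difference of -0.43 (exact permutation p = 0.1, the smallest possible, adjusted over the 6 ratios 0.6). The differences were -0.30 in pair A, -0.60 in pair B and -0.39 in pair C (exact sign-flip permutation p = 0.25, the smallest that 3 pairs allow). Both unadjusted p-values follow from the lack of overlap, so the pairs are no separate evidence.

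Against miR-152-3p, miR-148a-3p had 6.07, 6.76 and 8.37 reads per read in hypoxia A, B and C, and 7.48, 13.5 and 9.26 in control A, B and C. The groups overlapped, since hypoxia C lay above control A. The log2 difference was -0.48 (exact permutation p = 0.2, adjusted over the 6 ratios 0.6), and -0.25 without control B. All 3 pairs were below 0.

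The ratio of the scarcer guides to each other varied between libraries in both groups. There were 1.32, 0.873 and 0.877 reads of miR-152-3p per read of miR-148b-3p in hypoxia A, B and C, and 1.32, 0.661 and 1.04 in control A, B and C. The groups overlapped, and the log2 difference was 0.05 (exact permutation p = 1), with -0.22 to 0.28 when single libraries were left out.

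A lower ratio of the abundant to the scarce paralog in hypoxia was also seen in both other families for which it was computed. The guides within each of them share a seed. There were 3.91, 3.34 and 3.65 reads of miR-26a-5p per read of miR-26b-5p in hypoxia A, B and C, and 4.22, 4.45 and 4.41 in control A, B and C, a log2 difference of -0.27. There were 10.8, 9.83 and 8.90 reads of miR-103-3p per read of miR-107-3p in hypoxia A, B and C, and 10.9, 11.7 and 11.5 in control A, B and C, a log2 difference of -0.21. In both, all hypoxia ratios lay below all control ratios, so this arrangement was not particular to miR-148a-3p and miR-148b-3p. How often it occurs among all families whose guides share a seed was not computed. The shift of miR-148a-3p against miR-148b-3p exceeded that of miR-26 by -0.16 (log2) and that of miR-103-3p and miR-107-3p by -0.22. In both comparisons the groups overlapped (two-sided exact permutation p = 0.3 and 0.2). With a smallest possible p of 0.1, this test could not pass 0.05.

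**Figure D4:**
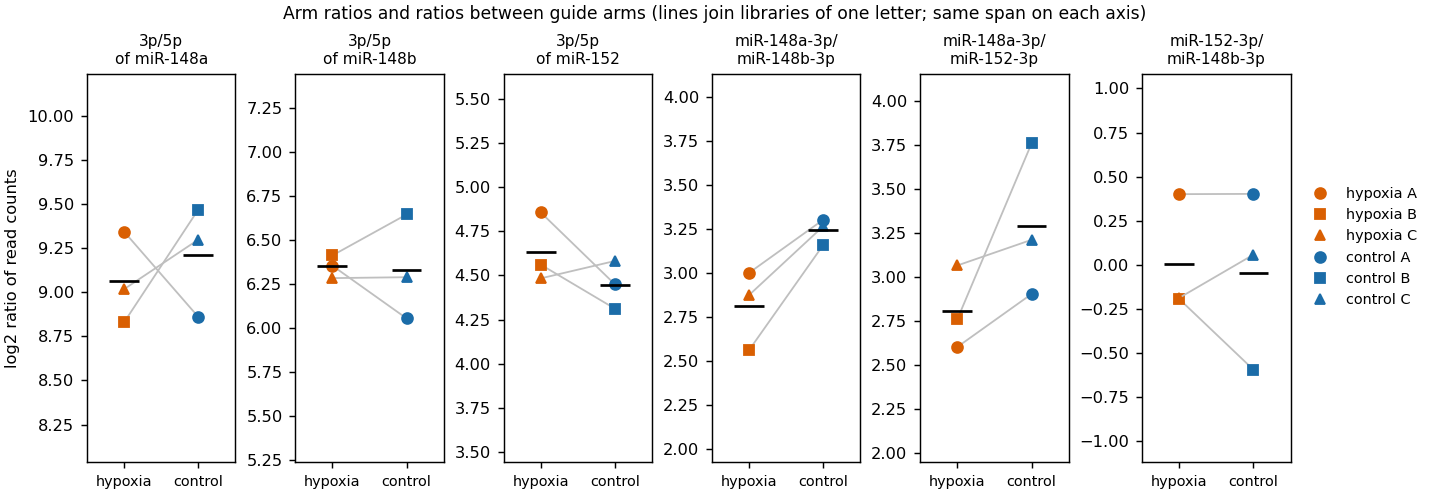
Log2 ratios of read counts within each library for the 3 hairpins (3p over 5p) and the 3 pairs of guide arms, hypoxia on the left (orange) and control on the right (blue). Black bars are group means and grey lines join libraries of one letter. The groups do not overlap for miR-148a-3p over miR-148b-3p, with means of 2.81 in hypoxia and 3.24 in control, and overlap in the 5 other panels.

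Read counts were strongly in favour of the 3p arm in all 3 hairpins, to very different degrees. Mir148a gave 650, 455 and 519 reads of the 3p arm per 5p read in hypoxia A, B and C, and 465, 710 and 630 in control A, B and C. The groups overlapped, and the log2 difference was -0.15 (exact permutation p = 0.7, adjusted over the 6 ratios 1). Its size depended on single libraries, at -0.29 without hypoxia A, -0.03 without hypoxia B, -0.32 without control A and -0.02 without control B. Pair A was above 0 (0.48), and pairs B (-0.64) and C (-0.28) were below.

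Mir148b gave 81.8, 85.1 and 77.9 reads of the 3p arm per 5p read in hypoxia A, B and C, and 66.4, 100.1 and 78.2 in control A, B and C. The hypoxia values lay inside the range of the control values, with a log2 difference of 0.02 (exact permutation p = 1). Mir152 gave 29.0, 23.6 and 22.4 in hypoxia A, B and C, and 21.9, 19.9 and 23.96 in control A, B and C. Its log2 difference was 0.19 (exact permutation p = 0.3, adjusted over the 6 ratios 0.6), with overlapping groups, and it was 0.07 without hypoxia A and 0.12 without control B.

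The hairpins kept their order in every library, since the lowest ratio of Mir148a lay above the highest of Mir148b, and the lowest of Mir148b above the highest of Mir152. Arms were paired by name, so hairpins with locus-numbered arms, such as miR-24 (miR-24-3p, miR-24-1-5p and miR-24-2-5p), were left out. miR-486a and miR-486b, with equal ratios, were both kept. So were hairpins whose 3p rows gave equal fits, such as miR-199a with miR-199b and miR-297a with miR-297b. The hairpins counted here are thus not all independent. Among the 188 hairpins so paired, with both arms tested and counted in every library, 87 had more 3p reads and 101 more 5p reads. Their median ratio of the major to the minor arm was 8.17. Among these 188, miR-148a ranked 2 by the ratio of 3p to 5p (563 reads per read on average, after miR-23a). Next in the family were miR-148b at 14 (81.0) and miR-152 at 26 (23.3). The 3 family hairpins all overlapped between groups in this ratio, and 18.1% of the 188 hairpins did not.

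**Figure D5:**
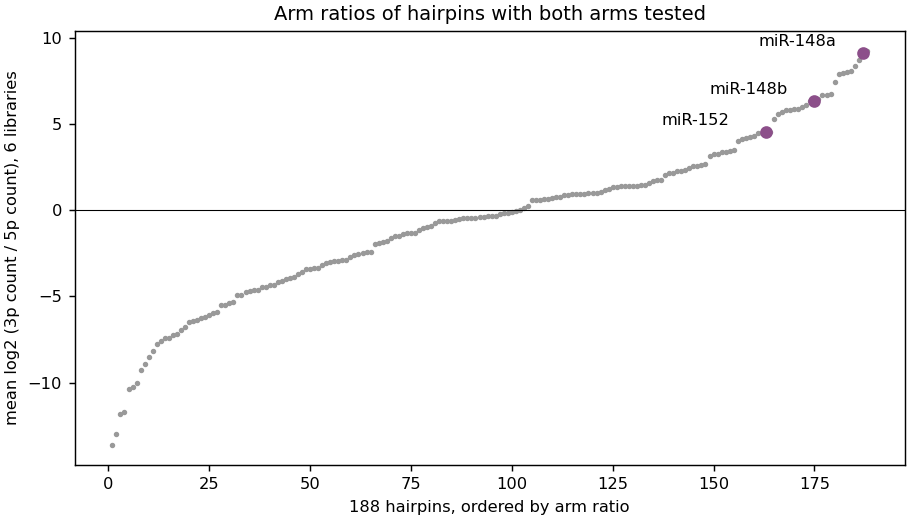
Mean log2 ratio of 3p to 5p counts over the 6 libraries for 188 hairpins with arms paired by name. Hairpins with locus-numbered arms are left out. They are ordered from lowest to highest, with the 3 family hairpins in purple. The family hairpins lie at 4.54 (miR-152), 6.34 (miR-148b) and 9.14 (miR-148a), all on the side of the 3p arm.

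In these 6 libraries the 3 guide arms did not rise and fall together, while the 5p arms varied more alike. Correlations of log2 CPM over the 6 libraries are given as descriptions, since libraries of one group or letter share more than the member's own level. They were 0.09 between miR-148a-3p and miR-148b-3p, -0.30 between miR-148a-3p and miR-152-3p, and -0.48 between miR-148b-3p and miR-152-3p. The arms of one hairpin gave 0.35 for miR-148a, 0.27 for miR-148b and 0.74 for miR-152. The 5p arms, which come from 3 chromosomes, gave 0.67 to 0.71 with each other.

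Outside the family, miR-410-3p, a miRNA of the imprinted Dlk1-Dio3 region, had the pattern most like that of miR-152-3p (Pearson's r = 0.99 over 6 libraries). Next came miR-199a-3p and miR-199b-3p (r = 0.98 each), whose rows hold equal counts and which are known from mesenchymal cells. miR-410-3p stood at 216, 88.9 and 99.9 CPM in hypoxia A, B and C and at 210, 51.9 and 71.6 CPM in control A, B and C. As for miR-152-3p, library A was the highest in both groups.

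The patterns most like miR-148b-3p were those of miR-6539, miR-297c-3p and miR-297b-3p (r = 0.92 each), which lay at 6.81 to 13.3 CPM over the 6 libraries. The rows of miR-297c-3p and miR-297b-3p hold equal counts. The miRNAs most like miR-148a-3p were miR-12182-3p (r = 0.98), miR-3109-5p (r = 0.91) and miR-3082-3p (r = 0.90). They lay at 0.307 to 2.31 CPM, where a few reads set the value, so the likeness is given only for completeness.

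No other miRNA in the RefSeq table holds CAGUGCA at bases 2 to 8. The same letters stand at bases 1 to 7 of 7 miRNAs, among them miR-130a-3p, miR-130b-3p and miR-301a-3p of the miR-130/301 family, which were tested, and 4 that did not pass the filter. The most abundant was miR-130a-3p, at 483 ± 49.7 CPM in hypoxia and 349 ± 63.0 CPM in control (SD, n = 3 each). Its hypoxia libraries lay above all control libraries, and hypoxia over control gave 0.47 on the log2 scale (SE 0.20, edgeR adjusted p = 0.72). miR-130b-3p gave 0.49 (SE 0.27) and miR-301a-3p 0.16 (SE 0.21), with overlapping groups.

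Other miRNAs known to act on DNA methyltransferases or on the histone methyltransferase Ezh2 were described as a list of 9. All 9 were tested, 5 had log2 fold changes above 0, the median was 0.20 beside 0.01 over all tested miRNAs, and edgeR called 0 with or without the letter block. miR-143-3p also belongs to the fibroblast and smooth muscle markers. The 4 most abundant were miR-143-3p (-0.10), miR-26a-5p (-0.07), miR-29a-3p (0.32) and miR-29b-3p (0.55), all as log2 fold changes of hypoxia over control.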

How the data were processed

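Small RNA counts of 6 libraries were used. The deposited tables hold raw read counts for 1978 known and 838 predicted miRNAs, whole numbers as found in the values. Named in the submitters' processing notes, without a role, are bcl2fastq 2.0, mm10 and DESeq2. No source used here names the aligner, counting program or miRNA release. No deposited column was left out. Library letters match no replicate number in the labels.

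Counts were filtered with filterByExpr, scaled by TMM and tested with edgeR 4.0.16 (R 4.3.3), hypoxia over control (quasi-likelihood F test, 619 miRNAs, Benjamini-Hochberg adjusted p under 0.05). SE was obtained as the size of the log2 value over the root of F. The procedure was tested on simulated data whose set changes were larger than any member's and which held no letter effect. That run therefore does not speak to changes as small as those of the members. Log2 CPM used a prior count of 2. Alternatives were DESeq2 1.42.0, limma-voom 3.58.1, other scalings, no filter, each library left out, and the letter as a block. Same-letter libraries deviated together from their group means over the tested miRNAs (r = 0.52 for A, 0.43 for B and 0.28 for C), each over the limit of 0.1, so the letters were read as pairing libraries. Unlike letters gave -0.44 to 0.12, the highest for hypoxia B with control C, which is also over the limit. The limit thus does not set same-letter libraries apart from all others. By chi-square per degree of freedom, hypoxia B lay closer to control C (120.2) and hypoxia C (134.7) than to control B (141). Control B and control C lay closest of all (85.9), then the A libraries (90.1) and the C libraries (104.3). The pairing comes from the column names and values, not the labels.

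Totals ran from 12285970 to 16975987 counts, and the limit that a count of 0 allows (3 counts) was at most 0.244 CPM. Intervals and this limit cover counting error only. All 6 arms were described in full, with lists described by their 4 most abundant members and likeness by the 3 highest correlations. Members and lists were chosen with earlier results of these data known. Sequences and positions are from RefSeq and GENCODE M21 on GRCm38. One further list of miRNAs is not reported here.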

Additional observations from a re-analysis of the deposited data

How the results depend on the processing

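miR-148a-3p stayed below 0 in all 16 alternatives (log2 fold change -0.47 to -0.16) and passed in none, with adjusted p from 0.18 to 1.0. The miR-148a-3p to miR-148b-3p ratio was also lower in its 8 alternatives (-0.52 to -0.31). Its groups did not overlap, so leaving out a library or averaging within letters could not turn its sign. Those alternatives speak only to its size. The groups of miR-148a-3p did not overlap either, so leaving out single libraries could hardly turn its sign. The count of called miRNAs, 0 in the unblocked edgeR fit, was 4 with no expression filter, 1 with DESeq2, 14 with the letter as replicate block, 23 with that block and no pair B, and 0 with it and no pair A or no pair C. The letter block changed no member's call. Small values turned sign. With the block and no pair A, miR-148a-5p was 0.089 and miR-152-5p 0.12. With the block and no pair C, miR-148b-3p was -0.017 and miR-148b-5p -0.050. With library size only, miR-152-5p was 0.018. With single libraries left out, log2 fold changes ran from -0.0061 to 0.32 for miR-152-3p and from -0.16 to 0.13 for miR-152-5p. Likewise the log2 ratio differences ran from -0.12 to 0.18 for the arms of Mir148b and from -0.22 to 0.28 for miR-152-3p over miR-148b-3p. The family share differed by -0.63 points when miR-21a-5p and miR-126a-3p were left out of the denominator, which is smaller by construction. In the unblocked edgeR fit each member fold change other than that of miR-148a-3p was smaller than its SE, and with the letter block that of miR-152-3p was larger (0.16, SE 0.10, adjusted p = 0.42).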
